A study of Mus musculus with 4 samples.

Results

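The genes described here are those that make cholesterol and fatty acids, together with the factors that control them. The list held 31 genes: 16 enzymes of the sterol branch from HMG-CoA synthase to cholesterol, 9 enzymes that make, elongate and desaturate fatty acids, 5 genes of the SREBP transcription factors and their regulators, and the sterol carrier Stard4. A gene counted as measured when a probe set carried its symbol and no other, and where several did, the one of highest average value stood for it. This left 28 genes among 17097 named genes: 15 sterol enzymes, 5 regulators and carriers (4 and Stard4) and 8 fatty acid enzymes. Pmvk, Srebf1 and Scd2 were not analysed here, as no probe set was named for them.

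The cells were B16F10, a melanin-producing melanoma line of mouse origin. Control cells (control 1 and control 2) received MilliQ water, that is 0 µM plumbagin. Treated cells (plumbagin 1 and plumbagin 2) received 2 µM plumbagin, a naphthoquinone of plant roots, for 24 h. Each of the 4 samples was hybridised to 1 Affymetrix mouse array, and the values are log2 expression values after RMA, the authors' normalisation. The labels do not say whether samples of a group were separate cultures or whether samples of equal number were handled together, so errors and p-values measure the spread between these samples, which may be technical. With 2 arrays per group, the number of arrays limits the precision.

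Cells make cholesterol from acetyl-CoA through mevalonate, squalene and lanosterol, and make fatty acids from malonyl-CoA. Both branches are controlled by SREBP proteins, which stay in the endoplasmic reticulum with the escort protein SCAP while INSIG proteins hold SCAP there. When membrane sterol falls, SCAP carries SREBP to the Golgi, where proteases free the part that enters the nucleus. SREBP2 acts mainly on sterol genes and SREBP1 mainly on fatty acid genes, often beside the factors NF-Y and Sp1.

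The label of the cells was checked against marker genes. All 7 melanocyte markers (Tyr, Tyrp1, Dct, Pmel, Mlana, Mitf and Sox10) had log2 values from 10.6 to 12.4 on the 4 arrays. A background level of 5.05 was taken as the 95th percentile of 41 odorant receptor genes. None of the 6 fibroblast, 4 epithelial and 3 measured adipocyte markers had a mean above it, and 1 of 4 measured immune markers (Cd3e) and 1 of 4 hepatocyte markers (Ttr) did. The array plumbagin 1 stood apart in 18 hybridization spike-in probe sets, which averaged 9.58 there and between 8.46 and 8.77 elsewhere (log2), and in its upper quartile, 6.26 against 6.34 to 6.36. RNA ends were read alike: the log2 value of the 3-prime minus the 5-prime Gapdh probe set lay between -0.03 and 0.01, and that of Actb was 0.47 and 0.50 in the controls and 0.56 and 0.52 with plumbagin.

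The upstream sequences of 4 genes are printed. Among members with a listed promoter, Msmo1, Idi1 and Elovl6 were the brightest of their branch with both plumbagin arrays on one side of both controls. Either side could be chosen, and in each of them it was above, as given further on. Insig1 was added as the feedback target of SREBP itself. Each is the 250 bases just before the annotated start from RefSeq, assembly GRCm38.p6, 5′ to 3′ on the strand of the gene. Msmo1 lies at chr8:64733579-64733828 (minus strand), Idi1 at chr13:8885356-8885605 (plus), Elovl6 at chr3:129532136-129532385 (plus) and Insig1 at chr5:28071162-28071411 (plus). Capitals mark CCAAT (the NF-Y box), GGGCGG (the GC box bound by Sp1), CACGTG (an E-box) and TCACNCCAC (a sterol regulatory element), each searched on both strands. No letters of these motifs overlapped in the 4 sequences.
Msmo1: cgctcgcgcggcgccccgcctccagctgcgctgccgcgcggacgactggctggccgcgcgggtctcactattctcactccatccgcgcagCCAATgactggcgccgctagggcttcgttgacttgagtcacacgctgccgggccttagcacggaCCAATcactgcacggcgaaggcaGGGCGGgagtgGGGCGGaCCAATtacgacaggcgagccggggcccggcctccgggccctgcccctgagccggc
Idi1: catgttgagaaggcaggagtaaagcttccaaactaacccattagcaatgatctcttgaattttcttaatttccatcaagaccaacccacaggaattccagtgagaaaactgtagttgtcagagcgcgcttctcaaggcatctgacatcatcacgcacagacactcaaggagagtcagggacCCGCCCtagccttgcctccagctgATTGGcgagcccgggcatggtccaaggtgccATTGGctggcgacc
Elovl6: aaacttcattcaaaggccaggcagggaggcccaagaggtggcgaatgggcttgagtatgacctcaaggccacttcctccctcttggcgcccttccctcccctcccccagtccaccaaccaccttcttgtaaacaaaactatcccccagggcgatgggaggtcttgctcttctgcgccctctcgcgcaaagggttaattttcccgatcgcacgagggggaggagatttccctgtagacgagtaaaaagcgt
Insig1: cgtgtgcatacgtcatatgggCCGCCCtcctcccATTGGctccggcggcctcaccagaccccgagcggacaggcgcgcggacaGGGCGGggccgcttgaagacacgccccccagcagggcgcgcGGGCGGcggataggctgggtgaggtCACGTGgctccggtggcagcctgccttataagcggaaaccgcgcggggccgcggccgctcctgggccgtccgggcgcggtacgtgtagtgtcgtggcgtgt
Msmo1 held CCAAT 160, 96 and 55 bases before the start and GGGCGG 73 and 62 bases before it. Idi1 held CCAAT on the opposite strand 45 and 14 bases before the start and GGGCGG on the opposite strand 69 bases before it, while Elovl6 held none of the 4 motifs in this window. Insig1 held CACGTG 101 bases before the start, CCAAT on the opposite strand 216 bases before it, and 3 GC boxes.

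The branches differed in these letters. Of the 28 measured genes, 22 had a listed promoter, and all 12 sterol enzymes among them held CCAAT, against 2 of 6 fatty acid enzymes (Acss2 and Fasn), 3 of 4 regulators and 37.5% of 27025 genes with a listed promoter. GGGCGG was found in the same 12 sterol enzymes, in 3 of 6 fatty acid enzymes, in 4 of 4 regulators and in 35.4% of all genes. The sterol regulatory element in its exact form was found in 1 of the 22 and in 1.22% of all genes. That gene was Hmgcs1, where the match (capitals) lay 137 bases before the start, within chr13:119690204-119690233 on the plus strand of GRCm38.p6.
Hmgcs1: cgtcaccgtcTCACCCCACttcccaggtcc
CACGTG was found in 5 of 22 members (Hsd17b7, Sc5d, Dhcr7, Insig1 and Scap) and in 6.86% of all genes. A match describes the letters in these windows and does not show a bound site.

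The treated and control arrays were compared to learn whether these transcripts differed after 24 h of plumbagin. No member passed an adjusted p of 0.05 by limma over all 17097 genes (adjusted p = 1 for each), and the background was the same, with 0% of all genes called. At an unadjusted p under 0.05, limma gave 0 of 28 members and 0.988% of all genes. Among the members, 15 had a higher mean and 13 a lower mean with plumbagin, against 44.8% higher over all genes. Their median difference was 0.013 on the log2 scale, beside -0.012 for all genes and -0.05 for the 8637 genes above background. In a culture measured in bulk, a change in every cell and a change in some of the cells cannot be told apart.

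Both plumbagin arrays lay above both controls in 3 members, Idi1, Msmo1 and Elovl6, against 10.2% of all genes. Both lay below in 2 members, Fdps and Fads1, against 15.2% of all genes. Among the 8637 genes above background, 27 of them members, 489 were separated upward and 1580 downward. The upward count of 3, all above background, is close to the share of all genes and above that of the genes above background, and the downward count of 2 is below both shares. Neither count was tested, and nothing is read from so few genes.

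**Figure D1:**
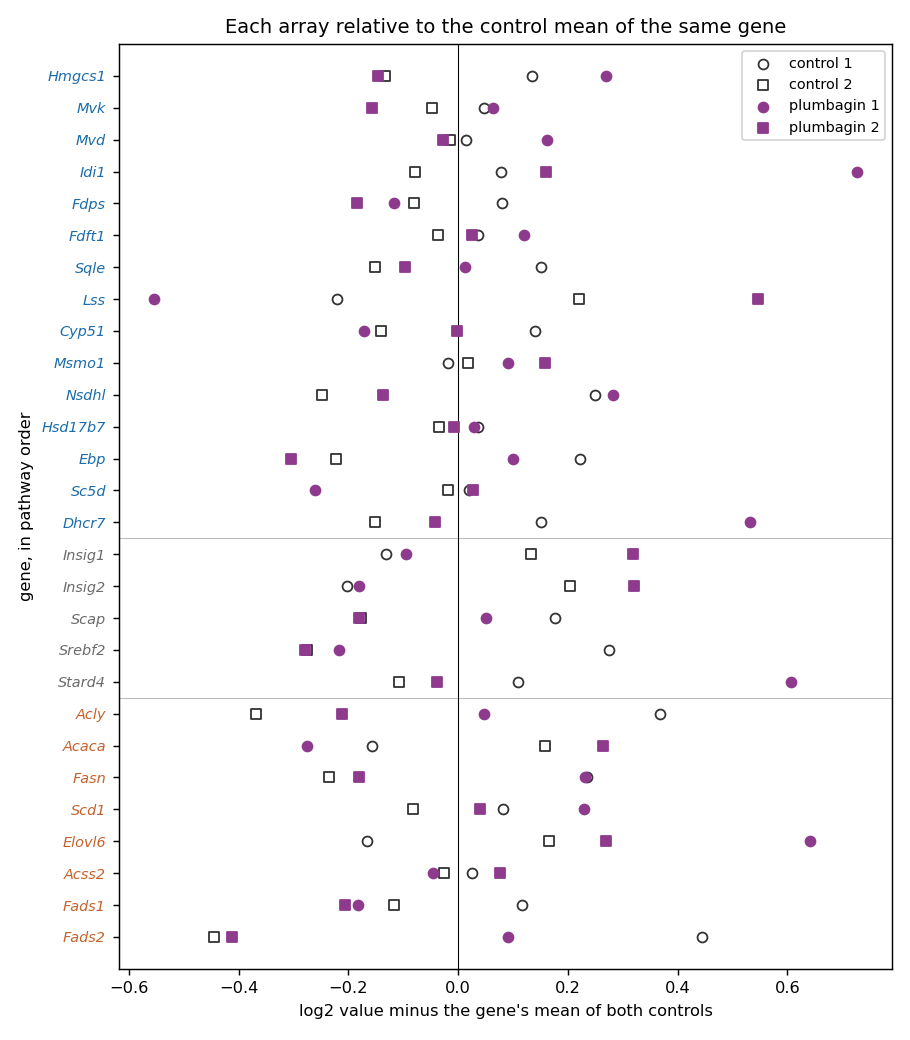
Log2 value on each array minus the mean of both controls of the same gene (horizontal axis) for the 28 genes in pathway order (vertical axis; sterol enzymes blue, regulators and Stard4 grey, fatty acid enzymes orange). Open symbols are controls and filled symbols plumbagin, circles number 1 and squares number 2; filled and open symbols are separated in Idi1, Fdps, Msmo1, Elovl6 and Fads1.

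The early sterol enzymes make and join isoprenoid units. Idi1, the isomerase that supplies dimethylallyl diphosphate, read 7.16 in control 1, 7.01 in control 2, 7.81 in plumbagin 1 and 7.25 in plumbagin 2 (log2 values; later genes follow this order). The treated values lay above both controls, and the gap between them was wider than the gap to the controls. The difference was 0.44 ± 0.21 (log2, SE, n = 2 per group; 1.36-fold), with a 95% interval from -0.13 to 1.02. Fdps, which makes farnesyl diphosphate, had values of 10.54 and 10.38 in the controls and of 10.35 and 10.28 with plumbagin, so that the higher treated array lay just under the lower control. Its difference was -0.15 ± 0.10, with an interval from -0.41 to 0.11. Fdft1, squalene synthase, differed by 0.07 ± 0.09, with controls at 8.30 and 8.23 and treated arrays at 8.39 and 8.29, the last between the controls. Mvk and Mvd, the mevalonate kinase and the decarboxylase, differed by -0.05 ± 0.11 and 0.07 ± 0.10. Hmgcs1, HMG-CoA synthase, had values from 3.01 to 3.42 on its single named probe set, below the background level, and its difference of 0.06 ± 0.18 is one between values at background.

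The later sterol enzymes turn squalene into cholesterol. Msmo1, a methyl sterol oxidase, had values of 8.58 and 8.62 in the controls and of 8.69 and 8.76 with plumbagin. The arrays of each group were close together here, and the difference was 0.12 ± 0.08 (interval -0.09 to 0.34). Dhcr7, the enzyme of the last reduction, had values of 7.91 and 7.61 in the controls and of 8.29 and 7.72 with plumbagin, and plumbagin 2 lay between the controls. Its difference was 0.25 ± 0.23. Lss, lanosterol synthase, had the largest SE of the 28 members, with values of 5.38 and 5.82 in the controls and of 5.05 and 6.15 with plumbagin. Both number 1 arrays lay below both number 2 arrays, and the difference was -0.0043 ± 0.41 (interval -1.11 to 1.10). Sqle, the squalene epoxidase that limits the rate of this stretch, differed by -0.04 ± 0.13, and Cyp51, lanosterol demethylase, by -0.09 ± 0.14. Nsdhl and Hsd17b7, which also work on the methyl sterols, differed by 0.07 ± 0.23 and 0.01 ± 0.08. Ebp, a sterol isomerase, and Sc5d, a sterol desaturase, differed by -0.10 ± 0.22 and -0.12 ± 0.12. In these 6 genes the arrays of the groups overlapped.

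The regulators gave no separation between the groups. Srebf2, which encodes SREBP2, had values of 8.36 and 7.81 in the controls and of 7.87 and 7.81 with plumbagin. Control 1 stood alone and the other 3 arrays were within 0.06 of each other, so that the difference of -0.25 ± 0.20 was -0.49 within number 1 and -0.0043 within number 2. Insig1 had values of 8.18 and 8.45 in the controls and of 8.22 and 8.63 with plumbagin, and Insig2 of 8.07 and 8.47 and of 8.09 and 8.59. For both anchors of SCAP the number 2 arrays were the higher ones in each group, and the differences were 0.11 ± 0.18 and 0.07 ± 0.23. Scap differed by -0.07 ± 0.16. Stard4, which moves cholesterol between membranes, had values of 6.09 and 5.88 in the controls and of 6.59 and 5.95 with plumbagin. Its difference of 0.28 ± 0.24 came from plumbagin 1, since plumbagin 2 lay between the controls.

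Among the fatty acid enzymes, Elovl6, the elongase of saturated and monounsaturated chains, had the smallest p of all members (unadjusted p = 0.065, limma over all genes). Its values were 5.62 and 5.96 in the controls and 6.43 and 6.06 with plumbagin. Plumbagin 2 lay 0.10 above control 2, and most of the difference of 0.46 ± 0.19 (1.37-fold, interval -0.04 to 0.96) came from number 1, where it was 0.81. Fads1, a desaturase of polyunsaturated chains, had values of 8.74 and 8.50 in the controls and of 8.44 and 8.42 with plumbagin, a difference of -0.19 ± 0.11 (interval -0.49 to 0.10). Fads2, the desaturase that acts before it, had values of 8.07 and 7.18 in the controls and of 7.72 and 7.22 with plumbagin. Here the controls were farther apart than any treated array was from a control of the same number, and the difference was -0.16 ± 0.36.

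Among the enzymes that supply and build the chain, Acly, Fasn, Acaca and Scd1 had their arrays in the same order in both groups. Acly, which makes cytosolic acetyl-CoA from citrate, had values of 9.78 and 9.05 in the controls and of 9.46 and 9.20 with plumbagin (difference -0.08 ± 0.28). Fasn, fatty acid synthase, had values of 9.04 and 8.57 in the controls and of 9.03 and 8.62 with plumbagin (0.03 ± 0.23). In both genes the number 1 array was the higher one, with and without plumbagin. Acaca, acetyl-CoA carboxylase, ran the other way, with 8.54 and 8.85 in the controls and 8.42 and 8.96 with plumbagin (-0.01 ± 0.23). Scd1, the stearoyl-CoA desaturase, had values of 9.79 and 9.62 in the controls and of 9.93 and 9.74 with plumbagin (0.14 ± 0.11), higher with plumbagin within each number. Acss2, which makes acetyl-CoA from acetate, differed by 0.02 ± 0.09.

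**Figure D2:**
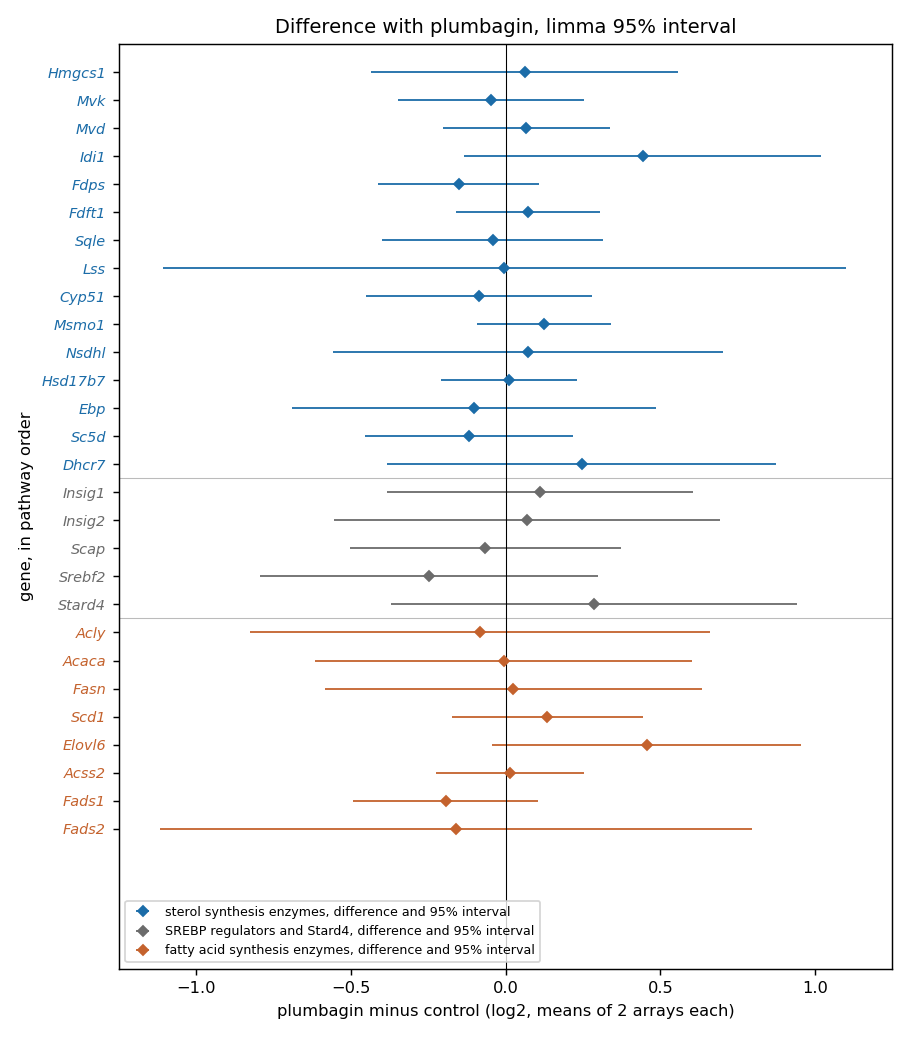
Plumbagin minus control on the log2 scale (horizontal axis, means of 2 arrays per group) for each of the 28 genes (vertical axis), with limma 95% intervals as bars; colours mark the branch. Every interval includes 0, and the intervals reach from -1.12 for Fads2 to 1.10 for Lss.

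The sterol branch was set against the fatty acid branch. The sterol enzymes had a median difference of 0.011 (8 of 15 higher) and the fatty acid enzymes one of 0.0047 (4 of 8 higher), and the medians were 0.0062 apart (sterol minus fatty acid). This distance moved with the processing, to 0.089 with the probe sets of a gene averaged and 0.12 with every probe set taken alone. It moved to -0.13 with control 1 left out. It was also below 0 with dim genes filtered out (-0.0014), with quantile normalisation again (-0.0054) and with cyclic loess (-0.016). For comparison, the mean log2 value over the branch varied between arrays of a group with a pooled SD of 0.09 for the sterol enzymes and 0.14 for the fatty acid enzymes. The difference between the branch means varied with a pooled SD of 0.05, and the distances just below 0 had changed by less than this. The 5 regulators and carriers had a median of 0.07 (3 of 5 higher).

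By replicate number the branches changed places. Between plumbagin 1 and control 1 the sterol median was 0.016 and the fatty acid median -0.09, with 8 of 15 and 2 of 8 genes higher. Between plumbagin 2 and control 2 the medians were 0.05 and 0.10, with 10 of 15 and 7 of 8 genes higher. The median over all genes above background was -0.11 in number 1 and -0.0016 in number 2, so in number 1 the fatty acid median was close to that of other genes and the sterol median above it. In number 2 both branches lay above it. Over all 28 members, 10 (35.7%) were higher in both numbers, against 21.7% of all genes, and 5 lower in both, against 29.0%. Among the 8637 genes above background, 1458 (16.9%) were higher in both and 3175 lower in both. An upward shift of cholesterol genes within both numbers was known from earlier results of these data when the genes were chosen. The count of members is therefore no independent support for such a shift. The members higher in both were Idi1, Fdft1, Msmo1, Nsdhl, Dhcr7, Insig1, Insig2, Stard4, Scd1 and Elovl6.

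**Figure D3:**
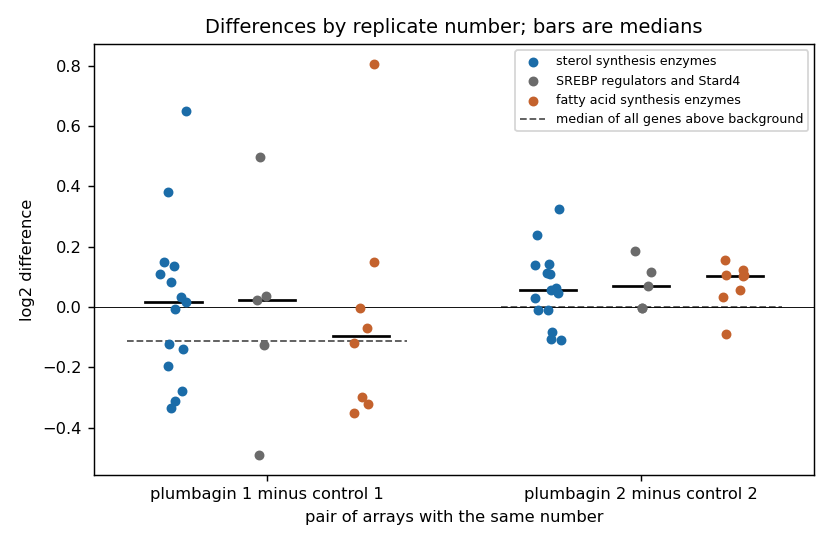
Log2 difference of plumbagin minus control (vertical axis) for each gene within number 1 (left) and within number 2 (right); colours mark the branch, black bars are medians of a branch and dashed lines the median of all genes above background. The fatty acid genes have a median of -0.09 on the left and 0.10 on the right, and the spread of all 3 groups is wider on the left.

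The gap between the controls was larger than the difference with plumbagin in most members. Control 1 and control 2 were farther apart than the group means in 22 of 28 members, against 64.9% of all genes and 69.2% of those above background. A gap between 2 single arrays varies more than a difference between means of 2 arrays, so a majority is not particular to these genes. The median gap in size was 0.27 between the controls and 0.27 between the treated arrays, beside 0.11 and 0.13 over all genes and 0.18 and 0.18 over those above background. Control 1 was the higher control in 22 of 28 members, by a median of 0.16, and plumbagin 1 the higher treated array in 20. In 24 of 28 members the array of the same number was the higher one in both groups. This held for 61.4% of all genes and 67.2% of those above background. The exceptions among the members were Cyp51, Sc5d, Elovl6 and Acss2. The gap between controls and the gap between treated arrays had a Pearson correlation of 0.67 across the 28 genes. It was 0.54 across all genes and 0.62 across those above background. These points share the same 4 arrays and genes are not independent replicates, so these values are descriptions. Whether the numbers stand for separate experiments was not tested. The SEs and intervals given with the differences come from a fit that takes no account of the number.

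**Figure D4:**
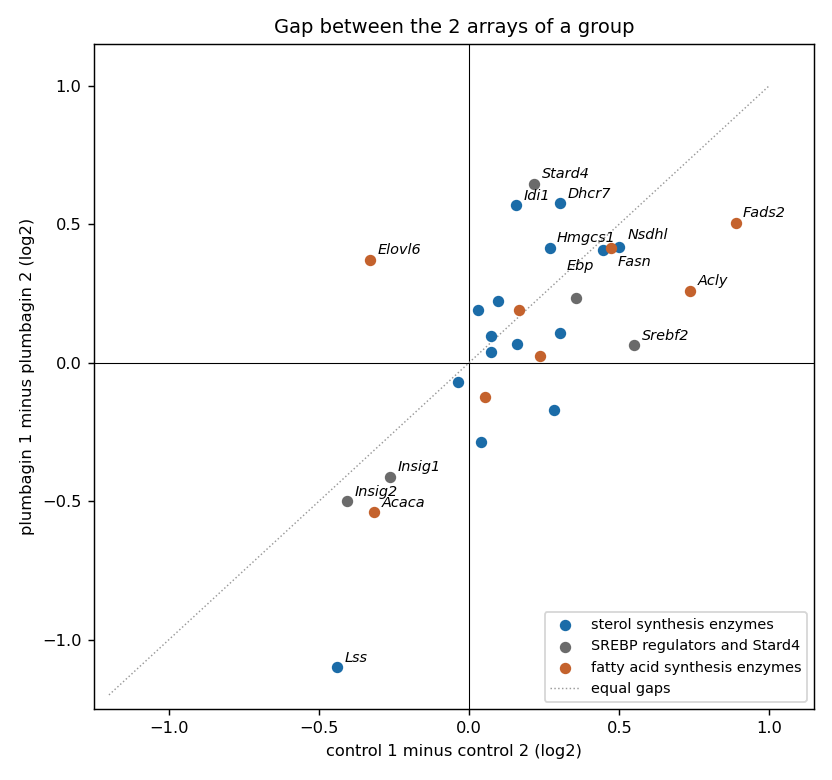
Control 1 minus control 2 (horizontal axis, log2) against plumbagin 1 minus plumbagin 2 (vertical axis, log2) for the 28 genes, with colours for the branch and a dotted line where both gaps are equal. Most genes lie in the upper right, Fads2 at 0.89 and 0.50, and Lss, Acaca, Insig1, Insig2 and, near the centre, Msmo1 lie in the lower left.

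Other probe sets gave a second reading for 17 members. Of their 24 other probe sets 13 had a mean above background, and of these 8 had the sign of the probe set used and 5 the opposite sign. The second probe set of Idi1 differed by 0.29 ± 0.23 and that of Elovl6 by 0.24 ± 0.10, the same direction as the first. Cyp51 (0.13 ± 0.10) and Scd1 (-0.16 ± 0.27) had second probe sets of opposite sign, and so did Insig2 on both others (-0.14 ± 0.23 and -0.05 ± 0.26). The remaining one of opposite sign above background was Sc5d, at 0.0023 ± 0.08. The second bright probe set of Stard4 differed by 0.01 ± 0.20, far less than the 0.28 of the first.

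Further genes of lipid metabolism were listed from general knowledge. Of 53, 38 were measured, 16 higher and 22 lower with plumbagin, with a median of -0.03. None passed the adjusted threshold of limma (0 of 38), and 0 had an unadjusted p under 0.05. Both treated arrays lay above both controls in 5 of the 38 and below both in 3, against 10.2% and 15.2% of all genes. In the sterol branch 3 more enzymes were measured, and Tm7sf2, a sterol reductase, differed by -0.17 ± 0.15. Among 8 genes of sterol transport and storage, Stard3, a lysosomal and endosomal sterol transfer protein, had values of 6.83 and 6.78 in the controls and of 6.21 and 6.62 with plumbagin. Both treated arrays were lower, and the difference was -0.39 ± 0.16 (unadjusted p = 0.067). Lipa, the lysosomal acid lipase that frees cholesterol from its esters, had a difference of 0.19 ± 0.10, with both treated arrays above both controls.

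Of 6 genes that process or degrade SREBP regulators, 1 was higher and 5 lower. Mbtps2, the protease that makes the second cut in SREBP, had values of 7.43 and 7.55 in the controls and of 7.60 and 7.71 with plumbagin (0.17 ± 0.09). Mbtps1, the protease of the first cut, differed by -0.13 ± 0.13. Of 16 further fatty acid genes 9 were higher and 7 lower. Mid1ip1, which activates acetyl-CoA carboxylase, differed by -0.25 ± 0.11 and Slc25a1, the mitochondrial citrate carrier, by -0.21 ± 0.12. In each, both treated arrays lay below both controls. Both lay above in 2 others of the 16, of which Fads3 differed by 0.21 ± 0.09 at values below the background level. Of 5 glycerolipid genes 3 were higher and 2 lower, and Dgat1, which makes triglycerides, differed by -0.16 ± 0.15.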

How the data were processed

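The deposited table held log2 values for 45141 probe sets on 4 arrays. The authors made them with Affymetrix Expression Console, Transcriptome Analysis Console and RMA, per the submitters' processing notes; their versions are not given in the sources used here. This procedure makes the arrays' distributions alike, so a shift of most genes would be removed, and it compresses weak signals. The platform annotation named 28898 probe sets with 1 symbol and 551 with several; 15588 were unnamed here, beside 104 control probe sets. Symbols were updated through Entrez numbers with a RefSeq table of GRCm38.p6. Differences were fitted in R 4.3.3 with limma 3.58.1 (lmFit, eBayes), two-sided, without covariates, and adjusted by Benjamini-Hochberg over 17097 genes. The code was tested on simulated arrays with independent noise and with differences larger than any found here. The test does not show how well smaller differences are detected.

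The members and lists were chosen with earlier results of these data known. All members could be named, and of each further list up to 4 genes with the smallest p; promoters were printed for the brightest separated members with a listed promoter and for Insig1. The stretch of Hmgcs1 was chosen after its match was seen. Promoter sequences are from RefSeq (GRCm38.p6).

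Alternatives were averaged probe sets, single probe sets, a filter on dim genes, repeated quantile normalisation, median centring, cyclic loess, eBayes with a robust trend, a block for the replicate number, and 1 array left out at a time, the spread of the array left alone in its group being taken from the other group.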

Additional observations from a re-analysis of the deposited data

How the results depend on the processing

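No gene was called by limma under the 12 alternatives, whether over all genes or among the members (0 and 0). Genes with an unadjusted p under 0.05 numbered 169 in the fit reported, between 25 with dim genes filtered out and 973 without plumbagin 2 elsewhere. Numbers shared by samples do not show that the samples are paired. Across genes, deviations of same-numbered samples correlated at 0.54. With the replicate number as a block again 0 genes and 0 members were called. In this balanced layout a block cannot change a difference, so the sterol and fatty acid medians were again 0.011 and 0.0047. The SE fell for most members, as for Nsdhl from 0.23 to 0.08, and rose slightly for Cyp51 and Elovl6. In this fit 434 genes had an unadjusted p under 0.05 by limma, Idi1 among them as the 1 member. Members had such a p in 2 other alternatives: Elovl6 and Srebf2 without control 2 (790 genes), and Elovl6, Idi1 and Stard4 without plumbagin 2. The medians of the branches were 0.089 apart (sterol minus fatty acid) with a gene's probe sets averaged and 0.12 apart with every probe set taken alone, where 28 of 52 probe sets were higher, and the cause was not tested. With 1 array left out the sterol median ran from -0.072 to 0.11, the fatty acid median from -0.11 to 0.24 and their difference from -0.13 to 0.044; both medians were highest without control 1, at 0.11 and 0.24.

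Of the 28 members, 7 kept their sign with any 1 array left out. Of these, 6 (Idi1, Fdps, Fdft1, Msmo1, Elovl6 and Fads1) kept it under all alternatives that give 1 value per gene. In Idi1, Fdps, Msmo1, Elovl6 and Fads1 the groups did not overlap, so leaving out 1 array could not turn the sign. The filter on dim genes, the robust trend and the block leave a gene's difference as it is and could not turn a sign either. Nor could averaging in Fdps and Fdft1, which had 1 probe set each. With 1 array left out, Elovl6 ran from 0.27 to 0.64 and Idi1 from 0.16, without plumbagin 1, to 0.73. The sign turned with probe sets averaged for Cyp51 (0.062), Insig2 (-0.039) and Scd1 (-0.013). It turned with quantile normalisation again for Acaca (0.032), with median centring for Hsd17b7 (-0.0079) and Acss2 (-0.0033), and with cyclic loess for Sqle (0.020), Lss (0.021) and Acaca (0.054). With 1 array left out the differences of 21 members turned, and their ranges were as follows. In the sterol branch they were -0.15 to 0.27 for Hmgcs1, -0.16 to 0.064 for Mvk, -0.027 to 0.16 for Mvd and -0.19 to 0.11 for Sqle. They were -0.55 to 0.55 for Lss, -0.23 to 0.054 for Cyp51, -0.18 to 0.32 for Nsdhl and -0.025 to 0.047 for Hsd17b7. They were -0.32 to 0.12 for Ebp, -0.26 to 0.027 for Sc5d and -0.042 to 0.53 for Dhcr7. Among regulators and carriers they were -0.095 to 0.32 for Insig1, -0.18 to 0.32 for Insig2, -0.24 to 0.11 for Scap, -0.52 to 0.027 for Srebf2 and -0.038 to 0.61 for Stard4. Among fatty acid enzymes they were -0.45 to 0.29 for Acly, -0.28 to 0.26 for Acaca, -0.21 to 0.26 for Fasn, -0.046 to 0.077 for Acss2 and -0.60 to 0.28 for Fads2.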
